A study of Rattus norvegicus with 15 samples.

Results

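The on-off genes described here were those whose level differed 16-fold or more between rats of the same group in rat lumbar spinal cord. They were chosen from the values themselves. A row of the count tables was kept where its CPM (the count divided by the library's total and multiplied by 1000000) reached 5 in at least 1 of 15 libraries and where log2(CPM + 0.1) spanned 4 or more among the 3 libraries of at least 1 group. This gave 129 genes of 34202 rows, or of 12733 rows that reached 5 CPM. The 15 libraries, in 5 groups of 3, were made from the L4-L6 cord on the injured side. The animals were Sprague-Dawley males, labelled adult. Sham rats had the left sciatic nerve exposed without ligation. All other rats carried a chronic constriction injury (CCI), a model of nerve-injury pain made by tying ligatures loosely around that nerve. They were left untreated (CCI) or were given Yuan-Hu Zhi Tong Prescription (CCI+YZP, 10.8 g crude drug per kg), YH (CCI+YH, 7.2 g) or BZ (CCI+BZ, 3.6 g) for 5 days from postoperative day 6, and tissue was taken on day 10. Each ligated group had 7 rats, of which 3 samples were sequenced. A library is called a rat here, although the labels do not say whether a sample could pool animals, and they give no batch, litter or cage. The p-values below therefore measure the spread between these samples, part of which may be technical.

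As background, Sprague-Dawley rats are an outbred stock, so animals of the same supply are not genetically identical, and transcript levels are known to vary between individuals of such stocks. The lumbar cord holds neurons, glia, vessels and meninges, and a bulk sample mixes the RNA of all of them. In bulk tissue fewer cells of a type and less RNA per cell cannot be told apart. The tables name genes by Ensembl identifier or by the authors' running number and do not pair them with symbols, so the genes are described by their levels, and no function, cell type or family is assigned. Of the 129 genes, 117 carried an Ensembl identifier and 12 a running number. Markers of cord cells, nerve, muscle or blood could not be looked up for the same reason, and their part in the results was not tested.

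Total counts ran from 15093246 to 22757104 per library, so that 3 counts, the limit that a count of 0 allows, corresponded to 0.132 to 0.199 CPM. Intervals and limits of this kind cover counting error only. The 129 genes together held 0.0667% to 0.168% of the counts of a library. Their highest CPM over the libraries had a median of 16.3 and ranged from 5.27 to 317, against a median of 33.1 for all 12733 rows. The median of the widest range within a group was 4.87 on the log2 scale for the 129 genes and 0.365 for the 12733 rows, a contrast that the choice of genes fixes. Just inside the threshold stood genes with a range of 4.003, 4.007 and 4.009, and just outside it genes with 3.977, 3.961 and 3.949.

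The name on-off described some members better than others. A library was called low for a gene where it lay 4 or more below that gene's highest library in log2(CPM + 0.1), and high where it lay less than 2 below. For 70 genes the sorted libraries were split by a gap of 2 or more on that scale (4-fold) between neighbours, and for the other 59 the levels were graded. No library was intermediate for 28 genes. At least 1 library held exactly 0 counts for 23 genes. The genes ran from rare to common among the rats: 44 were high in 1 to 3 libraries, 60 in 4 to 8 libraries and 25 in 9 or more. At the ends, 12 genes were high in a single rat and 9 in 13 or 14 rats.

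**Figure D1:**
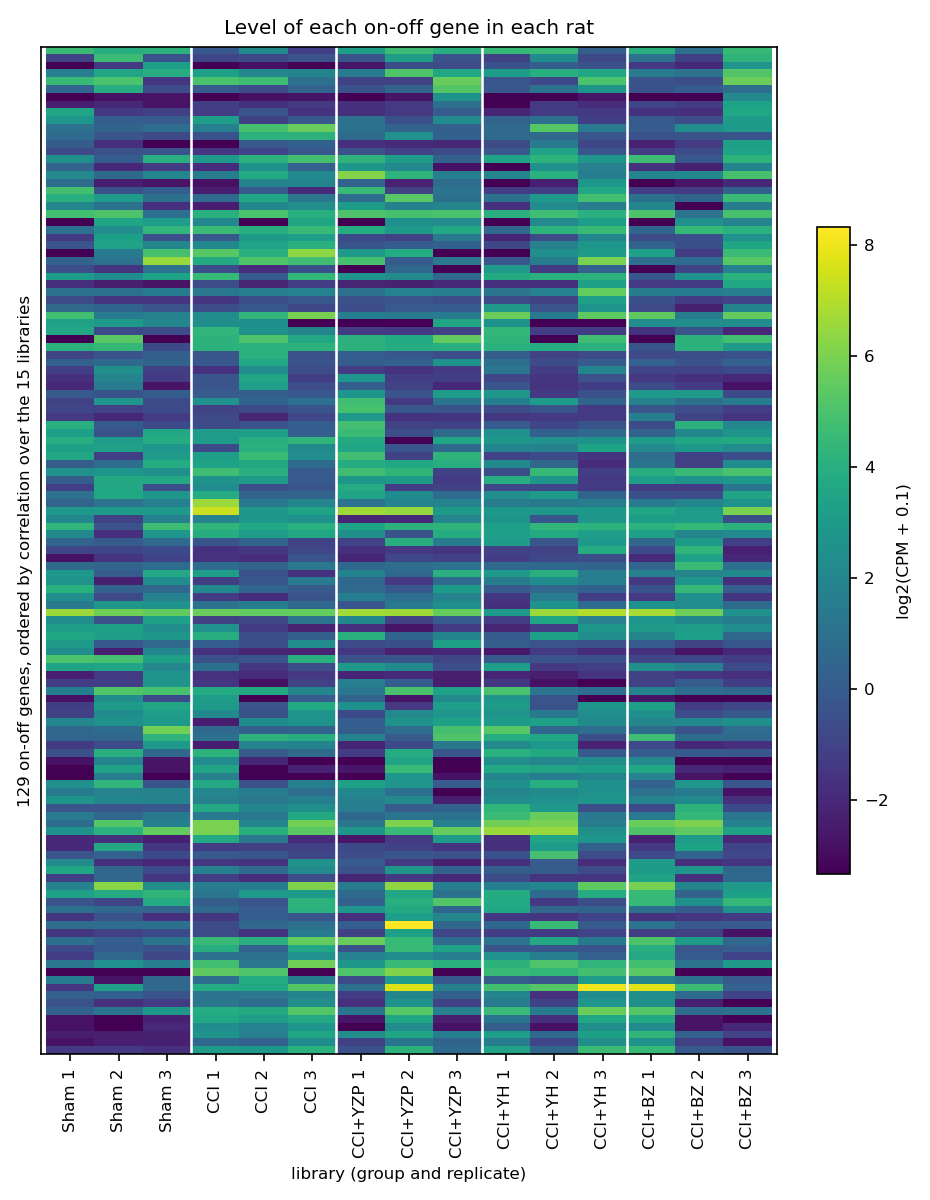
Levels of the 129 on-off genes (rows, ordered by their correlation) in the 15 libraries (columns, white lines between groups), as log2(CPM + 0.1). Dark cells stand within every group, with neighbouring rats of the same group bright for the same gene.

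The widest difference belonged to a gene without a single read in 7 rats, where the limit given above applies. It had 0 counts in the 3 Sham libraries, in CCI replicate 3, in CCI+YZP replicate 3 and in CCI+BZ replicates 2 and 3. In CCI replicates 1 and 2 it stood at 42.3 and 33.8 CPM, and in CCI+YZP replicates 1 and 2 at 34.1 and 69.4 CPM. The CCI+YH libraries held 22.9, 20.9 and 28.7 CPM, and CCI+BZ replicate 1 held 39.7 CPM. No rat lay between 0 and 20.9 CPM, so the rats fell into separate sets that cut across CCI, CCI+YZP and CCI+BZ.

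Other genes had the same all-or-none form with other rats. One had 0 counts in 4 rats (Sham replicates 1 and 3, CCI+YH replicate 2 and CCI+BZ replicate 1) and 12.3 to 45.1 CPM in the remaining 11. A gene with 0 counts in 5 rats (CCI replicate 3, CCI+YZP replicates 1 and 2, CCI+YH replicates 2 and 3) held 3.97 to 11.6 CPM in the other 10. Only CCI+YZP replicate 2 lacked another gene, with 0 counts, while the 14 other rats held 5.75 to 19.6 CPM. A locus with a running number had 0 counts in 5 rats, exactly 1 of each group (Sham replicate 1, CCI replicate 2, and replicate 1 of CCI+YZP, CCI+YH and CCI+BZ), and 3.46 to 11.9 CPM in the other 10. These 4 genes thus named 4 different sets of rats, and no set followed a group.

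The low level was not always 0. One of the 2 genes with the 16-fold range in all 5 groups held 1.63, 38.1 and 3.31 CPM in Sham and 63.4, 3.68 and 58.0 CPM in CCI. It held 2.24, 66.8 and 3.30 CPM with YZP, 55.4, 62.7 and 2.99 CPM with YH, and 50.1, 63.9 and 3.52 CPM with BZ. The 7 low rats thus kept 1.63 to 3.68 CPM and the 8 high rats held 38.1 to 66.8 CPM, with both kinds in every group. The other gene of this kind was the running-number locus at 0 in 1 rat of each group. A gene with high levels in 3 rats stood at 204 CPM in CCI+YZP replicate 2, 263 CPM in CCI+YH replicate 3 and 219 CPM in CCI+BZ replicate 1, and at 0.247 to 36.7 CPM in the other 12.

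The reverse form, a gene near its floor in most rats and high in 1, was found in 12 genes above their widest gap in a single library. The highest level of all members, 317 CPM, was in CCI+YZP replicate 2. That gene stood at 23.5 CPM in CCI+YH replicate 2 and at 0.527 to 2.05 CPM in the other 13 rats. Another reached 93.0 CPM in CCI replicate 1 and stayed at 1.19 to 5.98 CPM elsewhere, and one more reached 30.1 CPM in CCI+YZP replicate 1 against 0.293 to 0.788 CPM elsewhere. In the last of these the difference between CCI+YZP and CCI had an unadjusted edgeR p of 0.00209 (adjusted p = 0.565, edgeR). However, 2 of the 3 CCI+YZP rats lay at the level of CCI. These p-values are descriptions, since the gene was chosen on the same values. Genes high only in rats of 1 group were few: 4 in CCI+BZ, 3 each in CCI+YH and CCI+YZP, and 2 each in CCI and Sham. Of these 14, all but 1 in Sham and 1 in CCI+YZP were high in a single rat of the group.

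A set of 4 genes marked the same pair of rats, CCI+YZP replicate 3 and CCI+BZ replicate 3, in opposite directions. ENSRNOG00000006759 held 6.39, 3.91 and 3.56 CPM in Sham and 3.25, 2.45 and 3.12 CPM in CCI. It held 3.27, 4.39 and 0.0970 CPM with YZP, 5.10, 5.89 and 6.33 CPM with YH, and 3.55, 4.44 and 0.201 CPM with BZ. The 2 rats were thus far below all 13 others, the lowest of which held 2.45 CPM (54 reads).

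ENSRNOG00000033038 lacked reads in the same rats. It had 0 counts in CCI+YZP replicate 3 and 0.0502 CPM (1 read) in CCI+BZ replicate 3, against 1.76 to 5.86 CPM in the other 13. ENSRNOG00000049123 was its mirror image, with 6.26 CPM in CCI+YZP replicate 3, 4.37 CPM in CCI+BZ replicate 3 and at most 0.0586 CPM (1 read) in any other rat. ENSRNOG00000058439 was also highest in these rats, at 10.6 CPM in CCI+BZ replicate 3 and 1.89 CPM in CCI+YZP replicate 3, and held 0 to 0.444 CPM elsewhere. Over the 15 libraries the correlation of log2(CPM + 0.1) was 0.956 within the first pair of genes and 0.844 within the second, and it was -0.963 to -0.849 across the pairs. These values are descriptions, since the genes share libraries and depth and were picked for their pattern. ENSRNOG00000049123 and ENSRNOG00000058439 reached a usable count in too few libraries and did not enter the tests between groups.

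**Figure D2:**
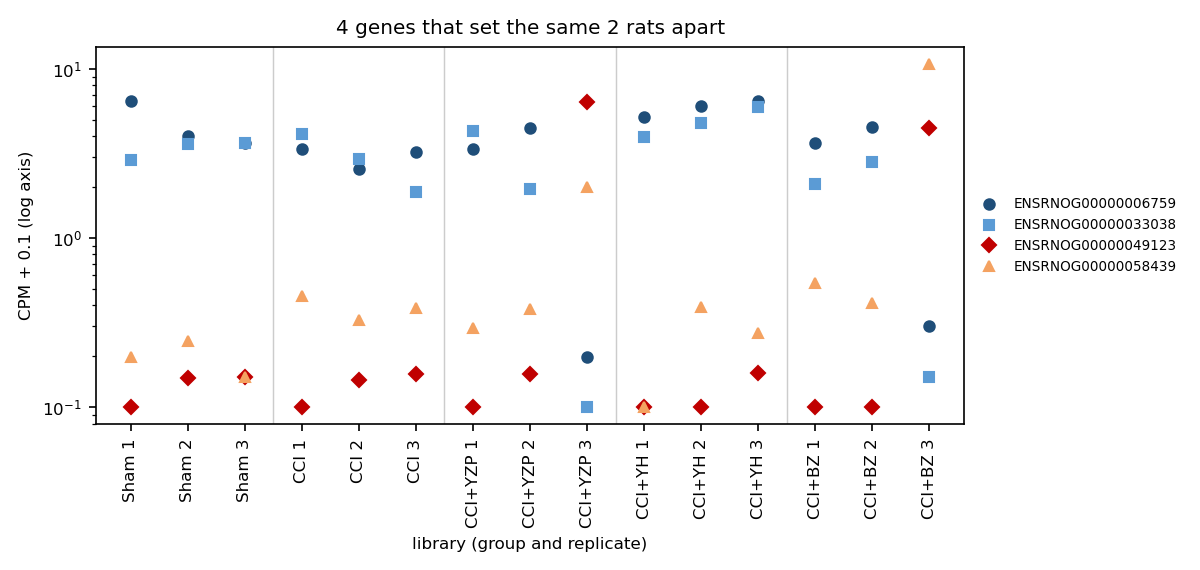
CPM + 0.1 (log axis) of 4 genes in each of the 15 libraries, 1 point per gene and library. The 2 genes in blue fall and the 2 in red and orange rise in CCI+YZP replicate 3 and CCI+BZ replicate 3, and in no other rat.

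Few genes went together. Of the 8256 pairs of members, 35 had a correlation of 0.8 or more over the 15 libraries, 7 had one of -0.8 or less, and the median was 0.00022. Average-linkage clustering at a correlation of 0.8 put 24 genes into 9 clusters and left 105 alone. The 70 split genes had 62 different sets of rats above the gap, and 14 of them shared a set with another gene. Besides the 4 genes above, an opposite relation held for the gene without reads in CCI+YZP replicate 2 and the gene at 317 CPM in that rat (r = -0.868), with that 1 rat at both extremes. The remaining relations of -0.8 or less were -0.829 and -0.813. The first of them joined the gene with 7 low and 8 high rats to a running-number locus at 29.1 CPM in Sham replicate 1, 22.9 CPM in CCI+YZP replicate 1 and 12.1 CPM in CCI+YH replicate 3, all 3 of them low rats of the former.

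The tightest cluster was of 3 genes (1 of them a running-number locus) that were high in the same 7 rats, Sham replicate 2, CCI replicate 1, CCI+YZP replicate 2, all 3 CCI+YH rats and CCI+BZ replicate 1. Their correlations were 0.976 to 0.990. In the other 8 rats the genes were at or below 0.157, 0.136 and 0.0522 CPM. In CCI+YZP replicate 2 each gene had its highest level, at 23.1, 11.1 and 6.81 CPM. In the 6 other high rats the levels were lower and close together, at 8.90 to 12.4, 3.67 to 5.43 and 2.89 to 3.91 CPM. Whether these rows overlap in the genome and share reads was not examined, for want of coordinates.

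The 7 clusters of 2 genes included pairs that picked out a single rat. In CCI+YH replicate 3 one such pair stood at 47.0 and 9.31 CPM, while the other 14 rats held 1.86 to 3.38 and 0.244 to 0.795 CPM. In CCI+BZ replicate 2 another pair stood at 24.4 and 10.0 CPM, while the others held 1.23 to 2.33 and 0.0495 to 0.681 CPM. In a pair highest in CCI+YZP replicate 1, at 30.1 and 7.37 CPM, the second gene was also raised in CCI+BZ replicate 1, at 3.05 CPM, and the first was not, at 0.777 CPM. Thus 2 of these 3 pairs shared the whole set of rats above the gap, and the last did not.

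The largest cluster held 7 genes, 3 of them split and 4 graded, whose correlations ran from 0.736 to 0.982. In all 7 every CCI library lay above every Sham library, an order found in 16 of the 129 members (12.4%) and in 20.8% of the 12733 rows. The reverse order was found in 4 members (3.10%) and in 8.39% of the rows. One gene of the cluster held 0.0495, 0 and 0.102 CPM in Sham and 12.4, 8.91 and 12.7 CPM in CCI. Its treated rats were divided: 0.0641, 11.6 and 0.0970 CPM with YZP, 2.19, 0.193 and 12.1 CPM with YH, and 13.3, 0.0522 and 0 CPM with BZ. Another had levels between the extremes, with 0.0978 to 0.102 CPM in Sham and 6.33, 3.23 and 11.7 CPM in CCI. It held 5.25, 11.5 and 3.10 CPM with YZP, 9.47, 1.497 and 9.61 CPM with YH and 19.2, 1.15 and 0.402 CPM with BZ.

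The rats high for this cluster also stood apart over other genes. A first principal component was taken over all other genes that passed the filter on low counts used for the tests below. On it 7 libraries scored above 0 (8.20 to 30.9). These were the 3 CCI rats, CCI+YZP replicate 2, CCI+YH replicates 1 and 3 and CCI+BZ replicate 1. The other 8 scored -24.8 to -7.86. For 5 of the 7 genes each of the 7 libraries lay above each of the 8. The share of all genes with this order was not counted, and the 7 genes were correlated with each other. The 3 most abundant genes of the tables took 6.75% to 7.91% of the counts in the 7 libraries and 7.995% to 9.60% in the 8. The part of these differences in the result was not tested.

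**Figure D3:**
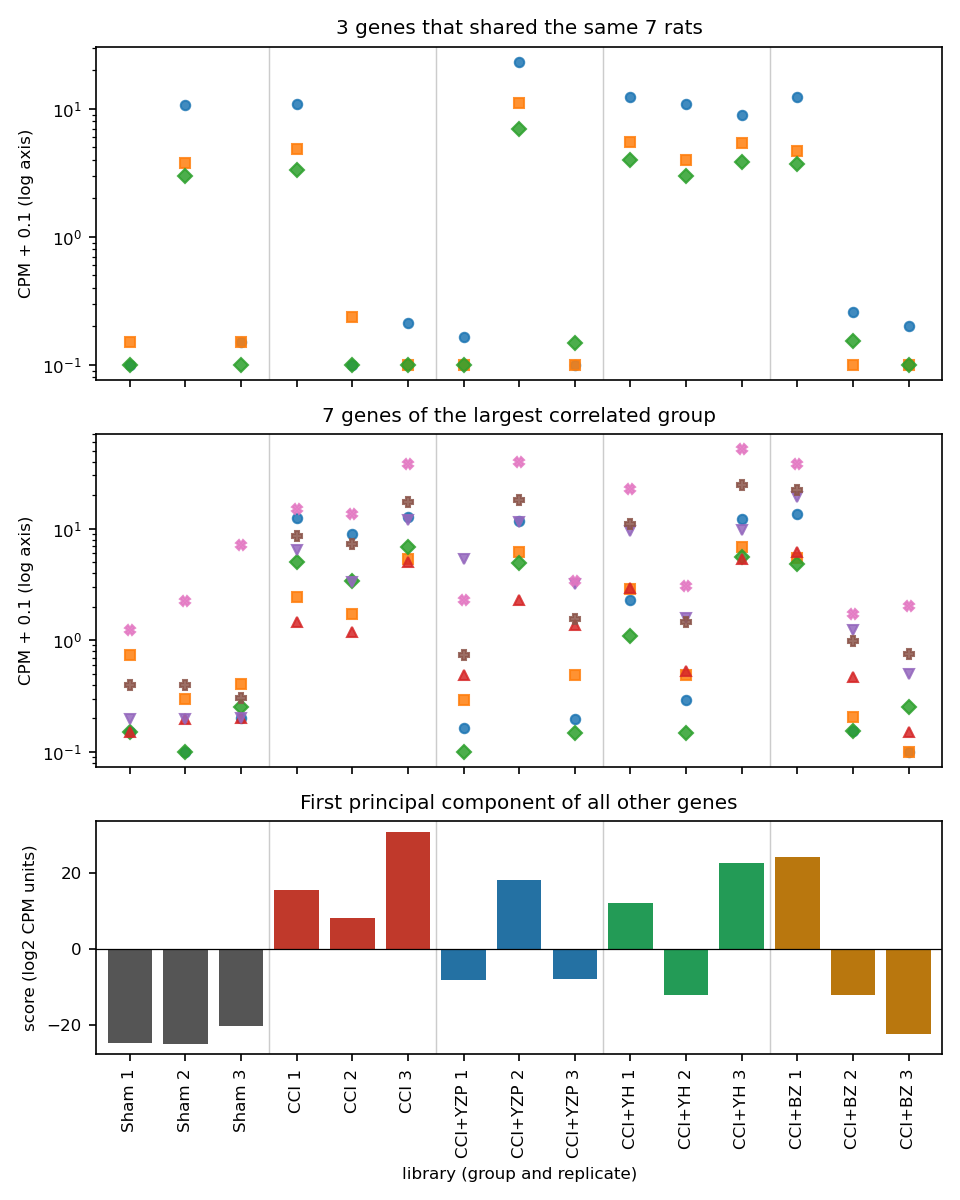
CPM + 0.1 (log axis) per library for the cluster of 3 genes (top, 1 symbol per gene) and of 7 genes (middle). Bars (bottom, coloured by group) give the first principal component score of all other genes that passed the filter on low counts. The 3 genes are near the floor in 8 rats, whose scores lie on both sides of 0, and the 7 genes are highest in the libraries with scores above 0.

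In a few genes the rats stood at 3 separate levels. With levels cut at gaps of 0.6 on the log2 scale, a setting chosen after the values were seen, 6 genes had 3 levels with at least 2 rats and a spread of at most 0.8 in each of the upper levels. One gene stood at 1.78 and 2.09 CPM in Sham replicate 3 and CCI+BZ replicate 2, at 16.01 to 16.65 CPM in 4 rats and at 26.5 to 33.2 CPM in 9. Another stood at 5.73 and 7.55 CPM in 2 rats, 45.2 to 55.7 CPM in 7 and 97.8 to 126 CPM in 6. The median of the top level was 1.89 to 2.36 times that of the middle level in 5 of these genes and 5.82 times in the sixth. By construction the gap of 0.6 keeps this ratio from being small, and the limit of 0.8 keeps the upper levels flat. Genes outside the 129 were not examined for levels. Rats of 3 or more groups shared the top level in both genes described.

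**Figure D4:**
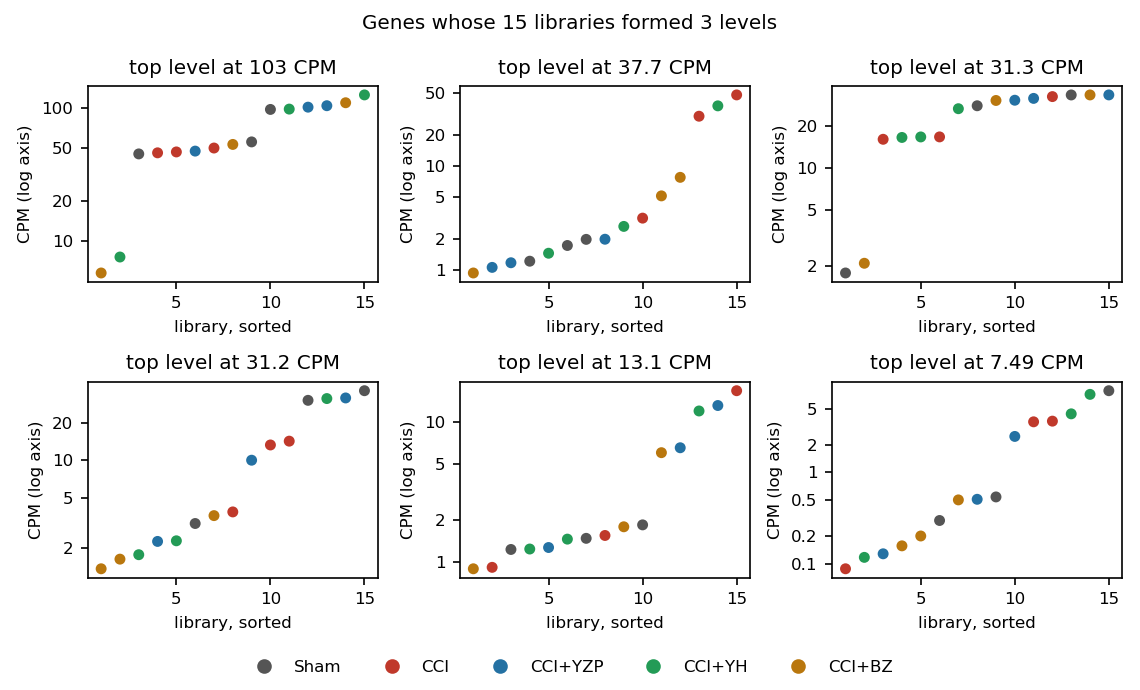
CPM (log axis) of the 15 libraries, sorted from low to high and coloured by group, for the 6 genes that formed 3 levels. In the panels with a top level of 103 and 31.3 CPM, the upper levels are flat steps near 47.4 and 103 CPM and near 16.6 and 31.3 CPM, and colours are mixed along them.

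Genes chosen as on-off in the rats of 1 group could be read in the rats of the others, which that choice did not use. Within a group, the genes that reached 5 CPM there and spanned the 16-fold range numbered 37 for Sham (0.305% of the genes at 5 CPM in the group), 33 for CCI (0.269%), 46 for CCI+YZP (0.375%), 45 for CCI+YH (0.367%) and 50 for CCI+BZ (0.407%). A chosen gene counted as on-off again where it spanned the 16-fold range in the group read, even if it did not reach 5 CPM there. The percentages just given, used below as backgrounds, do require 5 CPM in the group. Of the 37 genes chosen in Sham, 20 (54.1%) were on-off again among the CCI+YZP rats, 16 (43.2%) among the CCI+BZ rats, 15 (40.5%) among the CCI+YH rats and 10 (27.0%) among the CCI rats. Of the 33 genes chosen in CCI, 13 (39.4%) were on-off again among the CCI+YZP rats, 11 (33.3%) among the CCI+YH rats, and 10 (30.3%) each among the Sham and the CCI+BZ rats. Over all 20 such readings the share ran from 16% to 54.1%, with a median of 36.7%, against those backgrounds of 0.269% to 0.407%.

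Genes of like level that were not chosen gave lower shares. Those not chosen in a group, with 5 CPM or more there and a level no higher than the upper quartile of the chosen genes, were on-off in another group in 0.108% to 0.367%. In at least 1 of the other 4 groups, the share on-off again was 83.8% for the genes chosen in Sham, 82.6% for CCI+YZP, 71.1% for CCI+YH, 66.0% for CCI+BZ and 54.5% for CCI. Of the 129 members, 62 had the 16-fold range in 2 or more groups and 2 had it in all 5.

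**Figure D5:**
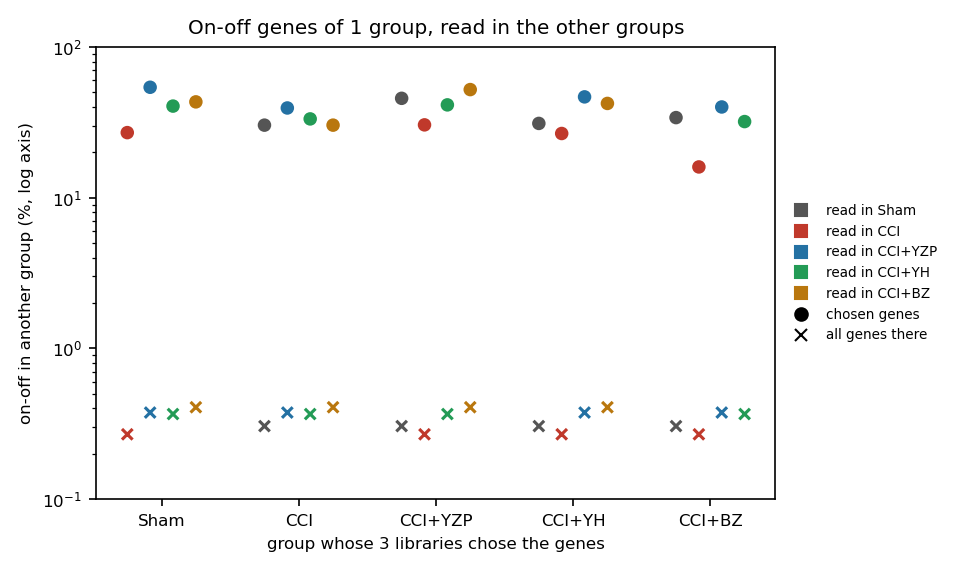
Share of on-off genes (%, log axis) in another group, for genes chosen in the group on the x axis (circles) and for all genes at 5 CPM in the group read (crosses), coloured by the group read. Circles sit between 16% and 54.1%, crosses between 0.269% and 0.407%.

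Whether members also differed between groups was tested in edgeR's quasi-likelihood model over all genes and 15 libraries. Of the 129 genes, 124 passed the filter on low counts. None was called at a Benjamini-Hochberg adjusted p under 0.05 among the 5 groups, where edgeR called 0.0908% of genes, nor in CCI against Sham (0.0182% of genes called), CCI+YZP against CCI (0.00605%), CCI+YH against CCI (0%) or CCI+BZ against CCI (0%). An unadjusted edgeR p under 0.05 was reached by 31 of the 124 among the 5 groups and, in the order just given, by 26, 20, 19 and 22 in the pairwise comparisons. Over all genes the shares were 10.5%, 17.9%, 6.94%, 5.59% and 6.63%. These counts are descriptions, since the members were chosen on the same libraries and a gene high in 1 group only could pass the filter through that group alone. The rule also favours genes with a wide spread within groups, which this test sets against the difference between groups. A count of 0 called members is therefore no result about the members. Leaving out CCI replicate 1 gave 2 members among 14 genes called in the test of 5 groups, where all 15 libraries gave 0 among 15. Leaving out replicate 2 of CCI or of Sham gave 1 member among 11 genes called, leaving out CCI replicate 3 gave 1 among 8, and leaving out CCI+YZP replicate 1 gave 1 among 3. In CCI against Sham, where all libraries gave 0 members among 3 genes, the count was 1 among 2 without CCI replicate 3 and without Sham replicate 2. Without CCI+BZ replicate 1 it was 1 among 193 genes called.

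DESeq2 gave an adjusted p to fewer members and called more of them. It called 11 of 102 among the 5 groups, against 2.01% of all genes, and 10 of 102 in CCI against Sham (8 higher and 2 lower in CCI), against 3.04%. It called 0 in CCI+YZP against CCI (0.148% of genes), 0 in CCI+YH against CCI (0.0721%) and 1 in CCI+BZ against CCI (0.125%). Among the 5 groups 27 members had no DESeq2 adjusted p, including the gene at 30.1 CPM in CCI+YZP replicate 1. Genes called there included some high in a single rat. One held 10.2 CPM in CCI+BZ replicate 1 and at most 1.36 CPM elsewhere (DESeq2 adjusted p = 0.00152). Another held 47.0 CPM in CCI+YH replicate 3 and at most 3.38 CPM elsewhere (DESeq2 adjusted p = 0.0237). These counts too are descriptions. Of the 10 in CCI against Sham, 4 belonged to the cluster of 7. The gene of that cluster at 0.0978 to 0.102 CPM in Sham had a log2 fold change of 6.00 (SE 1.55), an edgeR adjusted p of 0.122 and a DESeq2 adjusted p of 0.000916. The tools differed more for the gene without a single read in 7 rats, among them all Sham rats and CCI replicate 3. Its log2 fold change was 11.9 (SE 4.38), with an edgeR adjusted p of 0.201 and a DESeq2 adjusted p of 3.27e-07. Since every Sham count was 0, the size of this change is not a ratio of measured levels. An edgeR fit of CCI and Sham alone called 10 of the 110 members it tested, and it called 428 of all 16018 genes (2.67%), against 3 genes in the fit of 15 libraries.

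The smallest adjusted p among the 5 groups in edgeR, 0.0567, belonged to a gene that was on in Sham. It held 32.0, 29.0 and 9.57 CPM in Sham and 0.615, 0.682 and 16.5 CPM in CCI, and all 9 treated rats held 0.301 to 0.861 CPM. DESeq2 gave it an adjusted p of 2.67e-07 among the 5 groups. In CCI against Sham its adjusted p was 0.2248 in edgeR and 0.2405 in DESeq2. The gene was high in the Sham rats and in CCI replicate 3, while CCI replicates 1 and 2 were as low as the treated rats. Against CCI its edgeR adjusted p was 0.598 with YZP, 0.806 with YH and 0.620 with BZ. The DESeq2 adjusted p was 0.243, 0.498 and 0.0994 in the same order.

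Every rat was low for many of the genes, although few were without reads: a library held 0 counts for 2 to 8 members. The number of members called low per library ran from 39 in CCI replicate 3 to 68 in CCI+BZ replicate 2. The Sham rats had 61, 63 and 62, the CCI rats 46, 55 and 39, and the treated rats 51 to 68. Without the cluster of 7 genes the Sham counts were 55, 56 and 56 and the CCI counts did not change. All 3 libraries were low for 26 members in Sham, or 21 without that cluster, for 16 in CCI and for 15 to 17 in each treated group. The same counts were not made over all rows, and the members were chosen on these values. These differences in number were not tested.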

How the data were processed

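Raw counts per gene, as whole numbers, were deposited by the authors in 1 table per library (34202 rows, none a total). Per the submitters' processing notes the build was rn4 and DESeq2 1.16.1 was among the tools (aligner, counter, annotation and use of strand: not given in the sources used here). Thus overlapping, antisense or near-identical genes may share reads. None of the identifiers could be matched to the reference table (GRCr8, 47357 genes, 0 with an Ensembl identifier), so marker lists were not tested, no sequence is shown, and 4 identifiers are printed, chosen after their values were seen as 2 genes that fell and 2 that rose in the same rats. The remaining genes are described by their values. The members and lists were chosen with earlier results of these data known.

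CPM was each count divided by the library's total, in Python 3.11.15. Tests used edgeR 4.0.16 in R 4.3.3 (filterByExpr, minimum count 10, TMM scaling, 5 group coefficients, 10 residual degrees of freedom) and DESeq2 1.42.0 as an alternative, with undefined adjusted p-values kept undefined. The rule and the tests were also run on simulated data, in which the random spread of each gene was capped at the median over genes. That run thus did not cover genes of larger random spread. The SE of a log2 fold change was its size over the square root of F. DESeq2 tested the 5 groups by a likelihood ratio and pairs by the Wald test. Same-group libraries differed by a chi-square per gene of 6.72 to 25.5, so none was counted as a repeat. Alternatives were other scalings, pseudocounts, thresholds, filters and fits, a replicate block and leaving out each library. The labels do not say that same-numbered rats share anything, so the numbers were not used to pair rats.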

Additional observations from a re-analysis of the deposited data

How the results depend on the processing

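Library scaling by TMM or DESeq2 size factors kept 128 of the 129 members. Leaving out any library kept 117 to 125. By construction this step could only remove members, since a range over fewer libraries cannot widen. The number followed the cut-offs: it was 64 with a pseudocount of 0.5, 31 with 1, 218 with a range of 3 and 58 with a range of 5. Split genes numbered 34 with a pseudocount of 0.5, 16 with 1 and 42 with a range of 5, and 66 to 74 with a library left out, in place of 70. The pooled share of on-off genes read again in another group, 36.7%, became 30.5% with a pseudocount of 0.5 and 22.8% with 1. It was 31.7% with a minimum CPM of 2, 41.6% with a range of 3 and 29.9% to 35.8% with a library left out. By construction, genes chosen elsewhere cannot be on-off more often in a group that lost a library. The 4 genes named by identifier fell under the 16-fold range with a pseudocount of 0.5 or 1. ENSRNOG00000006759 also did so without CCI+YZP replicate 3 (range 3.92) and ENSRNOG00000058439 without CCI+BZ replicate 3 (range 2.77). ENSRNOG00000049123 without CCI+YZP replicate 3, and ENSRNOG00000033038 without CCI+YH replicate 3, kept the range but no longer reached 5 CPM. A minimum CPM of 10 left out all of the 4 but ENSRNOG00000058439, and a range of 5 left out ENSRNOG00000006759 and ENSRNOG00000058439. The pseudocount acts on the lowest levels by construction. Clusters held 14 genes at a distance of 0.1 in place of 24, and 25 to 31 with a library left out. In place of 0 members, DESeq2 called 11 among the 5 groups, 10 in CCI against Sham and 1 in CCI+BZ against CCI; edgeR called 2 members (17 genes in all) among the 5 groups without a filter on low counts, and 10 (428 genes in all) in CCI against Sham in the fit of these groups alone. With a library left out, 0 to 2 members were called among the 5 groups, 0 to 1 in CCI against Sham and 0 in the comparisons of CCI+YZP, CCI+YH and CCI+BZ with CCI. With the replicate number as a block, edgeR called 0 members in each of the 5 comparisons. Same-numbered rats of different groups were compared by their deviations from the group means. These had a median correlation of -0.0082 (-0.167 to 0.143 over 30 pairs), and 4 of 15 libraries correlated best with their own number. Such values cannot show whether same-numbered rats shared a batch, litter or cage. Depth limits all statements of absence to about 0.132 to 0.199 CPM.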

Other observations

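Likeness between rats was counted over the split genes. Over the 70 split genes, the share on which a pair of rats lay on the same side of the gap ran from 54.3% to 75.7% (median 64.3%) for the 15 pairs of the same group and from 52.9% to 77.1% (median 65.7%) for the 90 pairs of different groups. The most alike pair was CCI replicate 2 and CCI+YZP replicate 1, and the least alike were Sham replicate 1 and CCI+YZP replicate 2. This difference was not tested.

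On-off genes were found at every level above the minimum. They made up 2.03% of genes whose highest CPM was 5 to 10, 1.55% of those at 10 to 20, 0.951% at 20 to 50, 0.564% at 50 to 100 and 0.173% above 100. Loci with only a running number were 12 of the 129 members and 424 of the 12733 rows that reached 5 CPM.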
